A study of Mus musculus with 78 samples.

Results

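Potassium channels set the resting potential, spike shape and firing pattern of neurons, and the genes whose symbols start with Kcn encode their pore-forming subunits and the auxiliary subunits that bind them. They were taken by symbol from the platform annotation, leaving out Kcnj13, which marks the choroid plexus, the fluid-secreting epithelium of the brain ventricles. This gave 88 genes of the 19057 genes on the array with a symbol of their own, and 66 of the 88 passed a filter on dim probes that 12371 genes passed in all. The measured members were 9 two-pore channels, 7 pore subunits of the EAG family, 6 silent Kv subunits, 6 Kv1 pore subunits, 4 KChIP proteins, 4 Kir2 subunits, 3 each of the Kv beta, Kv3, Kv4, GIRK, KCNE and BK beta subunits, and 12 others. The 22 members that stayed too dim to test included Kcnn3, Kcnj5, Kcnk9 and Kcng1. Kcnq1ot1, 1 of the 66, is a noncoding transcript, and 4 further genes picked for their roles in neurons or glia were not analysed here.

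In the striatum most neurons are medium spiny neurons, which are held at a hyperpolarised resting state by Kir2 inward rectifiers, and their slow approach to the first spike depends on Kv1 and Kv4 channels. GIRK channels, the inward rectifiers opened by G protein beta-gamma subunits, are a classical target of opioid and dopamine D2-type receptors. M-current channels of the KCNQ family, calcium-activated BK and SK channels and two-pore leak channels further limit excitability.

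Striatal RNA of C57BL/6J mice was hybridised to Illumina expression arrays, 78 in all, with 1 sample an array. Mice received methamphetamine (first dose 2, last dose 8 mg/kg), heroin (first dose 10, last dose 40 mg/kg) or saline, injected 2 times daily for 12 days. Treatment was followed at days 1, 3, 6 and 12. Withdrawal was followed at what the labels call days 13, 15, 18 and 24, and every combination of day and injected substance has 3 arrays. A further 6 arrays came from naive mice, and no genotype or transgene is involved. The labels do not say whether replicates are separate animals, so p-values measure the spread between these samples, which may be technical. In RNA of whole tissue, fewer cells of a type and less RNA per cell cannot be told apart.

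Levels are log2 intensities after quantile normalization, 1 probe per gene, and levels of different probes are not compared. A change is drug minus saline on the log2 scale unless another pair is named, from a linear model (limma) that also holds a term for each of the 13 slides, so it need not equal the difference of the printed levels. It is given ± SE, with the p adjusted by Benjamini-Hochberg over 12371 genes and a threshold of 0.05. Probes near the array median of 6.95 understate folds, as those of Kcng2 and Kcnj6 may.

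The 3 methamphetamine day 1 arrays stood apart from the other 75. Their mean level of 7 measured hippocampal markers, each relative to its median over all arrays, was 1.36 to 2.04, against -0.25 to 0.28 on the others. The same level for 7 measured medium spiny neuron markers was -3.69 to -0.67, against -0.83 to 0.29, and for 5 cortical excitatory markers it was 0.62 to 0.93, against -0.80 to 0.91. The saline day 15 array with replicate number 2 had the highest cortical and the lowest medium spiny level of those 75, at 0.91 and -0.83. Across 12371 genes, deviations from the gene mean in the authors' deposited log2 table correlated with those of the signals at -0.08 to 0.30 on the methamphetamine day 1 arrays, against 0.39 to 0.86 (median 0.69) on the other 75, with the saline day 15 array at the low end. The part of the 3 methamphetamine day 1 arrays in each result was therefore measured by fitting with and without them.

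Over the 4 treatment days, methamphetamine against saline changed 6 of the 66 members, 4 higher and 2 lower. Among all genes 2.49% were called higher and 2.14% lower. Kcng2, a silent subunit that modifies Kv2 channels, rose by 0.37 ± 0.06, or 1.29-fold (limma adjusted p = 0.000155, 12 arrays against 12). Kcnn2, the SK2 calcium-activated channel, rose by 0.19 ± 0.04 (adjusted p = 0.00713), Kcnab2, the Kv beta 2 subunit of Kv1 channels, by 0.17 ± 0.05 (adjusted p = 0.0353), and Kcnip3, a calcium sensor that binds Kv4 channels and also acts in the nucleus as the repressor DREAM, by 0.15 ± 0.04 (adjusted p = 0.0185). Kcnk13, the two-pore channel THIK-1 known in mouse from microglia, fell by 0.20 ± 0.04 to 0.871 of saline (adjusted p = 0.00188), and Kcnt1, the sodium-activated channel Slack, by 0.16 ± 0.05 (adjusted p = 0.041).

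Without day 1, on days 3, 6 and 12, none of the 66 members passed in limma, against 0.34% of all genes, and 8 (12.1%) had an unadjusted p under 0.05, beside 9.07% of all genes. The change of Kcng2 was then 0.06 (adjusted p = 0.891), that of Kcnt1 0.05 (adjusted p = 0.859) and that of Kcnab2 0.08 (adjusted p = 0.776). Only Kcnip3 among the 6 had a change as large without day 1, 0.20 ± 0.05 (adjusted p = 0.101), while Kcnn2 had 0.09 and Kcnk13 -0.10. The other members with the smallest p on these days were Kcne1l, a KCNE-type auxiliary subunit, at 0.25 (adjusted p = 0.178), and Kcns2, a silent subunit, at -0.15 (adjusted p = 0.353). The median change of all 66 members was -0.02 with day 1 and 0.00 without it, against 0.00 for all genes in both fits. The median size of change was 0.0666 for members and 0.0418 for all genes with day 1, and 0.0475 and 0.0448 without it.

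**Figure D1:**
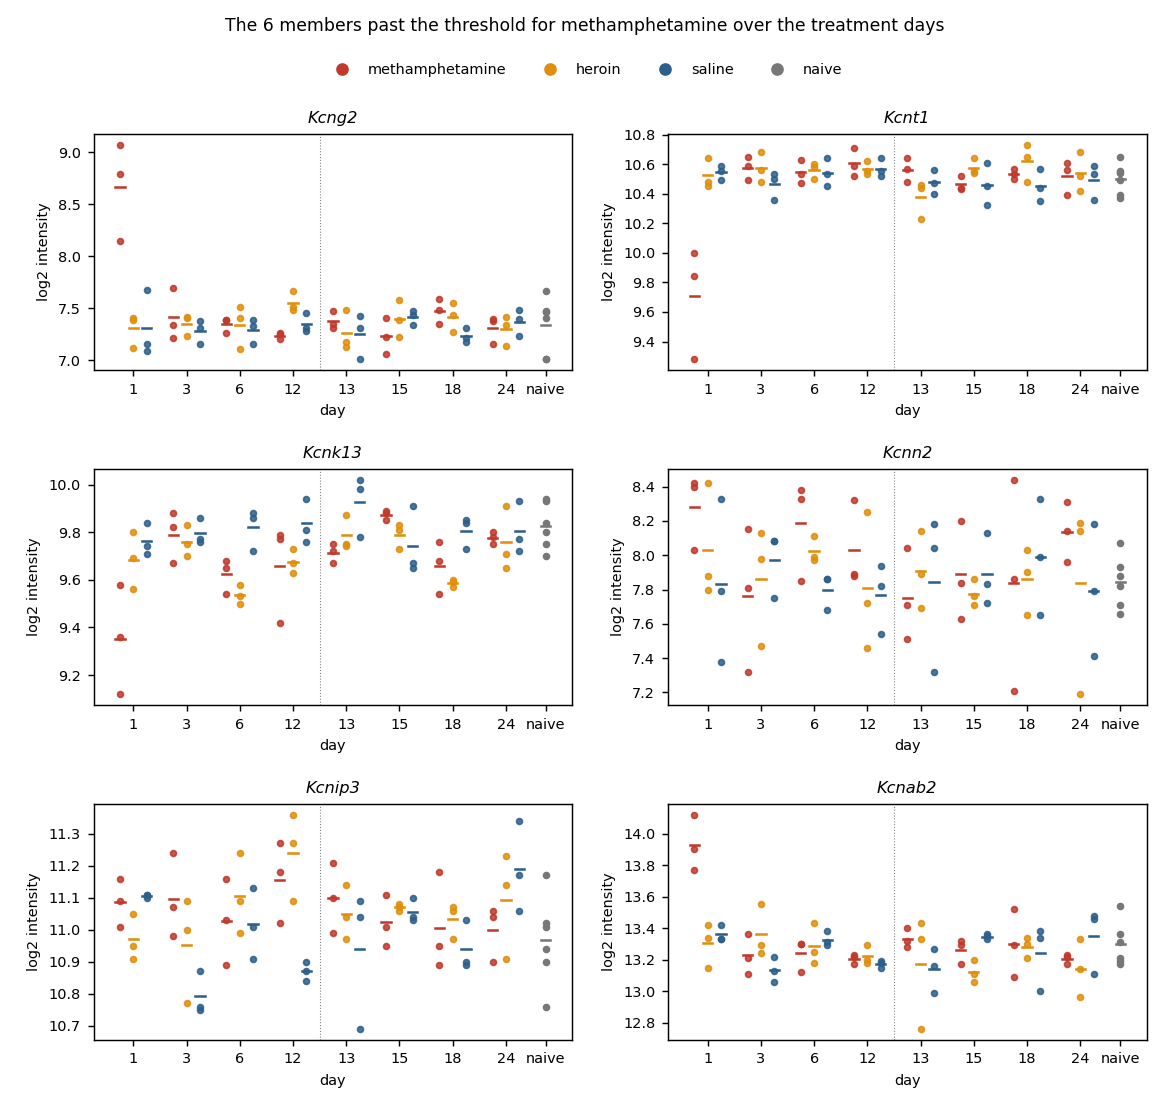
Log2 intensity on every array (points) and group mean (bars) for the 6 members called for methamphetamine over the treatment days, by day, with methamphetamine left, heroin in the middle and saline right within each day, and naive arrays at the right end. Kcng2 lies at 8.15 to 9.07 and Kcnt1 at 9.28 to 10.00 on the methamphetamine day 1 arrays, apart from all other arrays, whereas Kcnip3 shows its gap on days 3 and 12.

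The array values show how the 6 differ. Kcng2 had 8.79, 8.15 and 9.07 on methamphetamine day 1, against 7.68, 7.16 and 7.09 on saline day 1. On the other 75 arrays it stayed between 7.01 and 7.69, so the methamphetamine day 1 arrays lay above every other array. Kcnt1 had 9.84, 10.00 and 9.28 on methamphetamine day 1, against 10.59, 10.55 and 10.49 on saline day 1, and was 10.23 to 10.73 on the other 75. These 3 arrays lay below every other array.

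Kcnip3 behaved otherwise, since its methamphetamine day 1 arrays, at 11.01, 11.09 and 11.16, overlapped saline day 1, at 11.10, 11.11 and 11.11. Over days 3, 6 and 12 its lowest, median and highest values were 10.89, 11.07 and 11.27 with methamphetamine, 10.77, 11.09 and 11.36 with heroin, and 10.75, 10.87 and 11.13 with saline. The groups overlapped, with the medians of both drugs near each other and above that of saline. By day, the Kcnip3 change was 0.34 on day 12 for methamphetamine (adjusted p = 0.67) and 0.34 for heroin (adjusted p = 0.219). Both drugs are set against the same saline arrays, so these values are not independent.

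Kcnk13 had 9.12, 9.66 and 9.88 as its lowest, median and highest value over the 12 methamphetamine treatment arrays, 9.5, 9.68 and 9.83 over the 12 heroin arrays, and 9.71, 9.79 and 9.94 over the 12 saline arrays. The drug groups reached below the lowest saline value and overlapped with its upper part. Of the 11 slides that held both groups, Kcnk13 was lower with methamphetamine on 9 and with heroin on 10. Slides were also split by the leading digits of the barcode in the array names. The 2 sets are called chip lots here, though no label names a lot. Within these lots the mean Kcnk13 difference for methamphetamine was -0.22 on 3 slides of lot 1 and -0.21 on 8 slides of lot 2.

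The other 5 called members kept their direction in both lots, from 0.12 and 0.17 for Kcnip3 to 0.45 and 0.36 for Kcng2 in lots 1 and 2. Lot 1 has 18 arrays with methamphetamine day 1 and 17 without it, and lot 2 has 60 and 58. The lot means of these 5 and of Kcnk13 therefore do not separate day 1 from the later days. Of the 11 slides, 9 had the sign of the change for Kcnn2 and Kcnip3, 8 for Kcng2, and 7 for Kcnab2 and Kcnt1. Over 10 other processing settings Kcng2 passed in 9, Kcnk13 in 8, Kcnn2, Kcnip3 and Kcnab2 in 6 each and Kcnt1 in 3. Kcnn2 had 8.03, 8.40 and 8.42 on methamphetamine day 1, overlapping the 7.38, 8.33 and 7.79 of saline day 1. The slide took up 86.7% of its variance over the other 75 arrays. Kcng2, Kcnk13 and Kcnn2 stayed past the threshold when any 1 of the 24 arrays was left out. Kcnip3 missed it without 3 arrays taken in turn, with a highest adjusted p of 0.0567, Kcnab2 without 13 (0.119) and Kcnt1 without 19 (0.135). The count itself fell to 3 without saline day 6 replicate 3, without saline day 1 replicate 1 or without methamphetamine day 3 replicate 1. With the authors' deposited log2 values it was 0, without a slide term 2, in lot 2 alone 3 and with only the groups compared 1. A second probe of Kcng2 had a change of 0.01 over treatment, and a second probe of Kcnt1 -0.12.

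On methamphetamine day 1 alone, against saline day 1, 4 members were higher and 8 lower, with 3.36% of all genes higher and 3.86% lower. The 4 higher members were Kcng2 (1.33 ± 0.17, 2.52-fold, limma adjusted p = 1.77e-07), Kcnc4, the Kv3.4 pore (0.65 ± 0.20, adjusted p = 0.0361), Kcnn2 (0.50 ± 0.12, adjusted p = 0.00424) and Kcnab2 (0.48 ± 0.13, adjusted p = 0.0174). Kcnt1 fell by 0.83 ± 0.13 to 0.562 of saline (adjusted p = 1.48e-05). The other lower members were Kcna5, the Kv1.5 pore (-0.67), Kcnh2, the ERG1 pore (-0.60), Kcnk2, the leak channel TREK-1 (-0.56), Kcnq5, an M-current subunit (-0.55), Kcne1l (-0.54), Kcnk13 (-0.50) and Kcnj4, the Kir2.3 inward rectifier (-0.47), with adjusted p-values of 0.0018 to 0.0458. The markers of hippocampal and medium spiny neurons given above moved with these 12 on the same arrays, and their part in the changes was not tested.

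Among the array values behind these calls, Kcnj4 had 11.01, 11.25 and 11.11 on methamphetamine day 1, against 11.47, 11.88 and 11.87 on saline day 1. All 3 lay below the range of the other 75 arrays, 11.26 to 12.24. Kcnc4 had 12.29, 12.39 and 12.87 on methamphetamine day 1, against 11.63, 11.47 and 11.75 on saline day 1, above the 10.96 to 12.21 of the others. Kcnab2 had 13.90, 13.77 and 14.12 on methamphetamine day 1, against 13.33, 13.33 and 13.42 on saline day 1, and these arrays too lay above all others. Kcna5 overlapped instead, with 7.88, 8.21 and 6.99 on methamphetamine day 1 and 7.64, 8.89 and 8.30 on saline day 1. Kcnj6, the GIRK2 channel, was at 8.21, 7.92 and 8.34 on methamphetamine day 1, against 7.53, 7.34 and 7.68 on saline day 1, yet its change after the slide term was 0.37 ± 0.18 (adjusted p = 0.234).

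The methamphetamine day 1 array with replicate number 3 decided most of these calls: without it only 2 members passed, Kcng2 at a change between 1.14 and 1.54 over all single omissions, and Kcnt1 between -1.02 and -0.58. Second probes had smaller or similar changes on this day for some genes: 0.22 for Kcng2, -0.21 for Kcnk2, -0.79 for Kcnt1 and 0.52 for Kcnc4. The second Kcnq5 probe did not show the fall, at 0.03 (limma adjusted p = 0.937). Other probes had -0.44 and -0.19 for Kcnh2 (adjusted p = 0.143 and 0.382) and -0.38 for Kcnj4 (adjusted p = 0.241). With the authors' deposited log2 values 0 members passed, and Kcna5, Kcnab2, Kcnc4, Kcnj4, Kcnk2 and Kcnq5 had the opposite sign. Tested as a difference, the methamphetamine effect of day 1 minus that of days 3, 6 and 12 passed for 5 members, against 3.07% of all genes: Kcng2 at 1.29, Kcnt1 at -0.89, Kcna5 at -0.87, Kcne1l at -0.79 and Kcnq5 at -0.65. This count was 2 without methamphetamine day 1 replicate 3, 3 without saline day 1 replicate 2 or without methamphetamine day 6 replicate 3, and 9 without methamphetamine day 1 replicate 2.

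**Figure D2:**
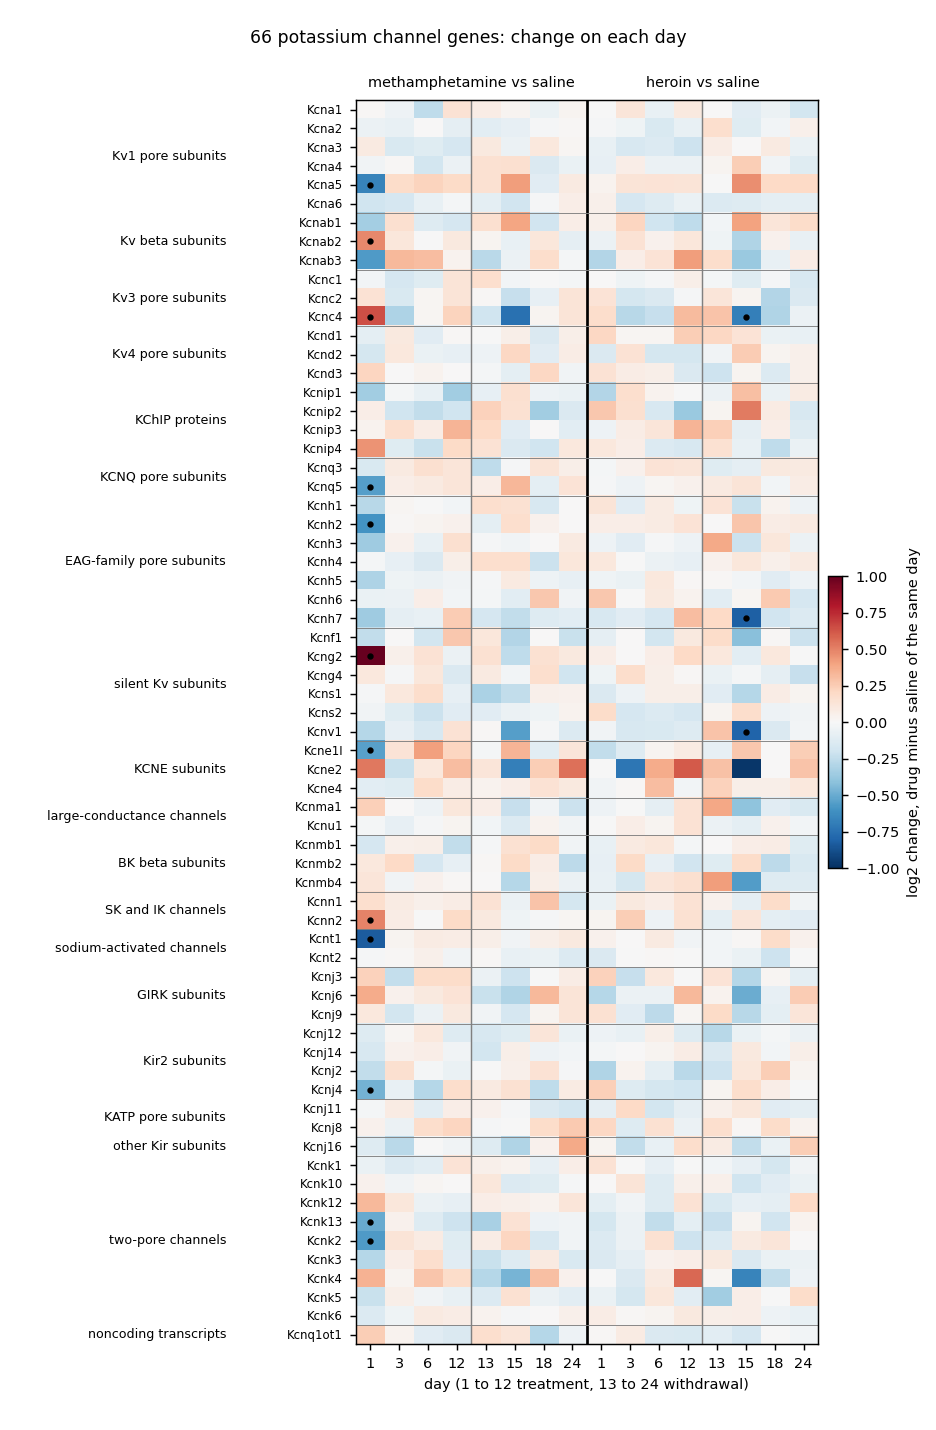
Fitted log2 change of the 66 measured members (rows, by class) on each day, methamphetamine left and heroin right, each minus saline of the same day, with dots on changes past the threshold. The scale ends at -1 and 1, so Kcng2 on methamphetamine day 1, at 1.33, is at its end. The dots lie on methamphetamine day 1 (12 members) and heroin day 15 (3 members).

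Heroin over the 4 treatment days changed none of the 66 members past the threshold in limma, with 1.66% of all genes called and 6 members (9.09%) at an unadjusted p under 0.05, beside 13.1% of all genes. The smallest p was that of Kcnk13, at -0.14 ± 0.04 (adjusted p = 0.0527, 12 arrays against 12). Kcnj2, the Kir2.1 inward rectifier, followed at -0.16 (adjusted p = 0.125) and Kcnip3 at 0.12 (adjusted p = 0.125). Over 10 other settings the adjusted p of Kcnk13 ran from 0.0239 to 0.25, and it passed with the slide as a random block, with a stricter filter and with the replicate number as a block. For methamphetamine minus heroin on days 3, 6 and 12 no member passed in limma, against 0.0728% of all genes, with 4 (6.06%) at an unadjusted p under 0.05, beside 6.69% of all genes. That difference was 0.03 for Kcnk13 (95% interval -0.068 to 0.135) and 0.01 for Kcnip3 (-0.093 to 0.123). Kcne1l had the smallest p of that comparison, at 0.26 (adjusted p = 0.296), followed by Kcnc2, a Kv3 pore, at 0.11 (adjusted p = 0.645), and Kcnu1, a large-conductance pore, at -0.11 (adjusted p = 0.715).

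By role, the inward rectifiers gave no call over either drug's treatment mean with the 1 probe taken per gene. The GIRK subunits under heroin were 0.03 for Kcnj3 (95% interval -0.061 to 0.113), -0.02 for Kcnj6 (-0.153 to 0.113) and -0.05 for Kcnj9 (-0.159 to 0.059), and each interval holds 0. Under methamphetamine the 4-day means were 0.09, 0.16 and -0.01 for the same 3 genes, and 0.05, 0.10 and -0.05 without day 1. Fitted over all kept probes, another Kcnj6 probe had 0.28 ± 0.07 over the 4 days, past the threshold (limma adjusted p = 0.00931). The remaining kept Kcnj6 probes had 0.10 and 0.09. Among the probes taken, Kcnj4 came nearest the threshold for methamphetamine with day 1, at -0.16 ± 0.05 (adjusted p = 0.0558), and had -0.07 without it. The KATP pores Kcnj8 and Kcnj11, which couple membrane potential to metabolism, had methamphetamine changes of 0.09 and 0.01 and heroin changes of 0.04 and -0.04. Kcnj16, a glial Kir subunit, had -0.11 and -0.03.

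Of the 6 measured Kv1 pores, Kcna1, Kcna2 and Kcna4 lay between -0.08 and 0.04 in methamphetamine with and without day 1 and in heroin treatment. Kcna3, Kcna5 and Kcna6 had -0.09, -0.02 and -0.12 with methamphetamine, -0.14, 0.18 and -0.09 without day 1, and -0.15, 0.11 and -0.08 with heroin, and none passed (lowest adjusted p = 0.0818, for Kcna6 with methamphetamine). Kcnab1, the Kv beta 1 subunit, had -0.12 with methamphetamine (adjusted p = 0.288) and -0.05 with heroin. The Kv4 pores Kcnd1, Kcnd2 and Kcnd3, of a family that carries the fast A-type current, had -0.02, -0.06 and 0.06 with methamphetamine and 0.12, -0.09 and 0.03 with heroin (adjusted p = 0.209 for Kcnd1 with heroin). Their KChIP partners gave values of both signs with methamphetamine, 0.15 for Kcnip3 as above and -0.20, -0.14 and 0.07 for Kcnip1, Kcnip2 and Kcnip4, with adjusted p-values of 0.117 to 0.555 for those 3. A second probe of Kcnip1 had only -0.02, and the other probes of Kcnip2 had -0.08 and -0.10. The Kv3 pore Kcnc1 of fast-spiking neurons had -0.05 with methamphetamine and 0.00 with heroin.

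The M-current subunits Kcnq3 and Kcnq5 had 0.05 and -0.07 over methamphetamine treatment and 0.07 and 0.00 over heroin treatment. Kcnma1, the BK pore, and its neuronal partner Kcnmb4 had 0.08 and 0.03 with methamphetamine and 0.00 and 0.01 with heroin. The leak channels Kcnk1 (TWIK-1), Kcnk2 and Kcnk3 (TASK-1) had -0.04, -0.12 and -0.04 with methamphetamine and 0.01, -0.06 and -0.03 with heroin.

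**Figure D3:**
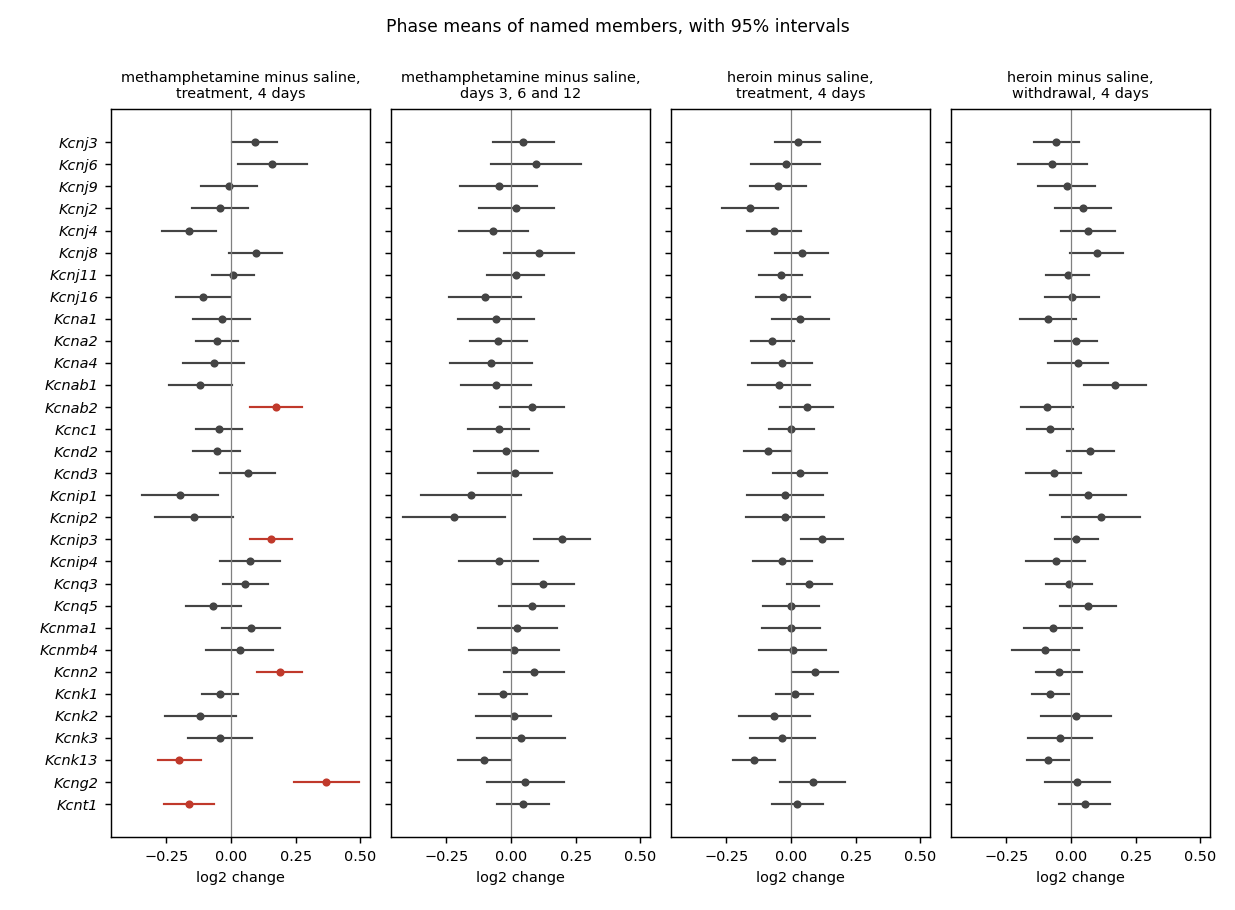
Change (points) with 95% intervals (lines) on the log2 axis for 31 members named by role or called, in 4 comparisons from left to right. Red marks members past the threshold, which occur in the first panel alone; Kcnip3 lies at 0.15, 0.20 and 0.12 in the first 3 panels.

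In withdrawal, none of the 66 members passed for methamphetamine (0.0243% of all genes, 5 members or 7.58% at an unadjusted p under 0.05 in limma, beside 5.57% of all genes) or for heroin (0.0485%, 12 members). For heroin those 12 are 18.2% of members, beside 10.9% of all genes, and the median size of change was 0.0672 for members and 0.0365 for all genes. By single day in limma, 10.6%, 27.3%, 4.55% and 0% of members had such a p on days 13, 15, 18 and 24. All genes had 7.86%, 12.5%, 4.07% and 2.9%. The saline day 15 arrays include replicate 2, whose markers stood out above, and its part in these shares was not tested. The smallest p in heroin withdrawal were those of Kcna5 at 0.22 (adjusted p = 0.199), Kcna6, another Kv1 pore, at -0.11 (adjusted p = 0.278), and Kcnab1 at 0.17 (adjusted p = 0.278). In methamphetamine withdrawal they were those of Kcnc4 at -0.20 (adjusted p = 0.798), Kcns1, a silent subunit, at -0.12 (adjusted p = 0.869), and Kcna5 at 0.14 (adjusted p = 0.883). Kcnip3 and Kcnk13 were at 0.00 and -0.07 in methamphetamine withdrawal, and at 0.02 and -0.09 in heroin withdrawal. Methamphetamine minus heroin in withdrawal gave 0 members in limma (0.00808% of all genes, 2 members or 3.03% at an unadjusted p under 0.05, beside 6.73% of all genes), with Kcnk1 first at 0.10 (adjusted p = 0.679).

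Day by day, heroin day 15 was the only one of 15 single days, methamphetamine day 1 aside, on which members passed. There 3 were lower and 0 higher, with 0.994% of all genes lower and 0.21% higher: Kcnh7, the ERG3 pore, at -0.82 ± 0.21 (limma adjusted p = 0.0414), Kcnv1, the silent subunit Kv8.1, at -0.80 ± 0.21 (adjusted p = 0.0458), and Kcnc4 at -0.69 ± 0.18 (adjusted p = 0.0463). On the other 14 days 0 passed, with 0.0196% of all tests called. Kcnh7 had 7.78, 7.76 and 7.91 on heroin day 15, against 8.25, 8.73 and 7.99 on saline day 15, with no overlap. Kcnv1 had 8.63, 8.88 and 8.66 on heroin day 15, against 9.13, 9.78 and 9.13 on saline day 15, again with no overlap. Kcnc4 had 11.21, 11.27 and 11.66 on heroin day 15, against 11.80, 12.21 and 11.47 on saline day 15, and there the groups overlapped.

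The cortical marker level moved with these values, at -0.71, -0.42 and -0.13 on heroin day 15, against 0.47, 0.91 and 0.07 on saline day 15. Without saline day 15 replicate 2, an omission chosen after its markers were seen, 0 members passed on the 15 days other than methamphetamine day 1, and the changes of Kcnh7, Kcnv1 and Kcnc4 were -0.72, -0.68 and -0.47. None of the 3 passed either without heroin day 15 replicate 1, heroin day 15 replicate 2 or saline day 15 replicate 1, nor with the replicate block or without a slide term, where the count was 0. On methamphetamine day 15, against the same saline arrays, Kcnv1 had -0.55 (adjusted p = 0.551), Kcnc4 -0.75 (adjusted p = 0.367) and Kcnh7 -0.24 (adjusted p = 0.835).

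Across the 75 arrays without methamphetamine day 1, several members followed the cortical marker level, a relation looked for after these values were seen. Of the 66 members, 24 correlated with it at an adjusted permutation p under 0.05, 18 positively and 6 negatively, over 660 relations of 66 members and 10 marker lists. The share of all genes that correlate with these lists was not measured, so such counts have no background beside them. With the cortical level Kcnv1 had Pearson's r = 0.83 and Spearman's rho = 0.78, Kcnmb4 0.80 and 0.83, and Kcnh7 0.75 and 0.73. Each had a permutation p of 1e-05, the smallest that 100000 permutations can give, and an adjusted p of 0.0002. These p-values and the counts of correlated members are for correlations over the 75 arrays before slide means were taken out. Without the 2 arrays farthest from the median cortical level r was 0.79, 0.82 and 0.73 for these genes. Within chip lot 1 (17 arrays) r was 0.68, 0.85 and 0.58, within lot 2 (58 arrays) 0.85, 0.80 and 0.78, and after taking out slide means 0.86, 0.86 and 0.81. Kcnf1, a silent Kv subunit, had r = 0.74 and rho = 0.71, Kcnk4, the leak channel TRAAK, 0.74 and 0.77, Kcnj6 0.70 and 0.66, and Kcnc4 0.67 and 0.66, with the same permutation p. Of these, Kcnf1 differed most between the lots, with r = 0.44 in lot 1 and 0.81 in lot 2.

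With the medium spiny level 25 members correlated, 9 positively and 16 negatively, again with no share of all genes to set beside them. Kcnc4 had r = -0.79 and rho = -0.75 with it (-0.89 in lot 1, -0.78 in lot 2, -0.74 without the 2 farthest arrays), and Kcnab1 r = 0.61 and rho = 0.60 (0.79, 0.63 and 0.61), each with a permutation p of 1e-05. Of the members called for methamphetamine treatment, Kcnab2 correlated with the cortical level at r = 0.49 and rho = 0.55 (0.23 in lot 1, 0.60 in lot 2) and Kcnip3 at r = 0.35 and rho = 0.33 (0.26 and 0.37), with adjusted permutation p-values for r of 0.000508 and 0.0183. The part of cortical tissue in any member's change was not tested.

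**Figure D4:**
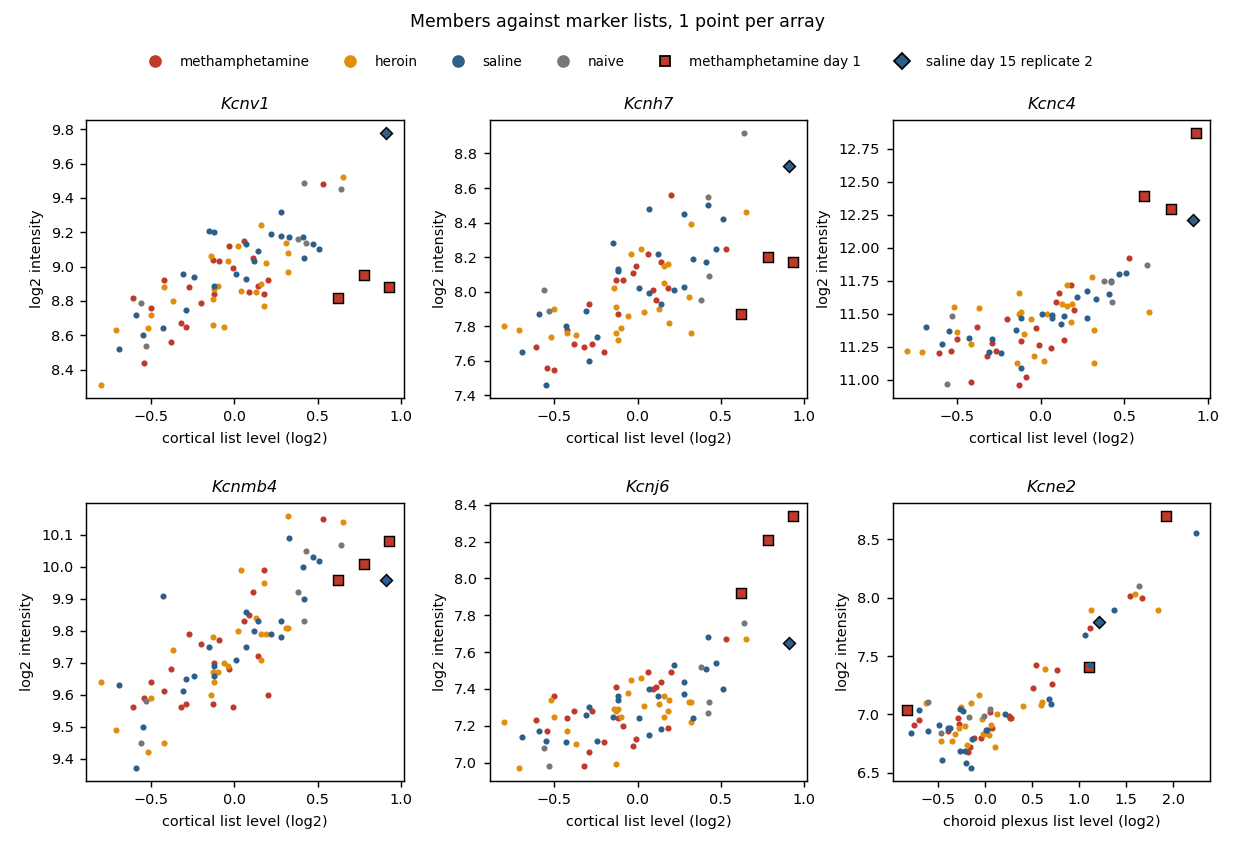
Log2 intensity of 6 members (y axes) against the level of the cortical marker list, or of the choroid plexus list for Kcne2 (x axes), 1 point per array, with squares for methamphetamine day 1 and a diamond for saline day 15 replicate 2. The points rise together in all 6 panels, and the squares for Kcnv1 lie below the trend while those for Kcnj6 and Kcnc4 lie above the other arrays.

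Sequence before a listed transcription start is given for Kcnmb4, Kcnh7 and Kcnc4, which correlated with the cortical level. On heroin day 15 Kcnh7 and Kcnc4 were called lower and Kcnmb4 had -0.56 (limma adjusted p = 0.0628). It is also given for Kcnk13, which fell with methamphetamine. The RefSeq promoter table (GRCm38.p6) held 67 of the 88 members, in 92 windows of which the 250 bases before the start were searched. Capitals mark the GC box GGGCGG on either strand, the motif bound by Sp1.
Kcnmb4, GRCm38.p6 chr10:116473524-116473773, minus strand: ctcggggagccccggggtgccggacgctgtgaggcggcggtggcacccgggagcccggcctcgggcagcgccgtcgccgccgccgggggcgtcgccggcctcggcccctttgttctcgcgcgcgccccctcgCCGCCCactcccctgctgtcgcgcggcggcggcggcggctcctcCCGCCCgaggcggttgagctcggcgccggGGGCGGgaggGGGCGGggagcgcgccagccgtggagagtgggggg
Kcnh7, GRCm38.p6 chr2:63184288-63184537, minus strand: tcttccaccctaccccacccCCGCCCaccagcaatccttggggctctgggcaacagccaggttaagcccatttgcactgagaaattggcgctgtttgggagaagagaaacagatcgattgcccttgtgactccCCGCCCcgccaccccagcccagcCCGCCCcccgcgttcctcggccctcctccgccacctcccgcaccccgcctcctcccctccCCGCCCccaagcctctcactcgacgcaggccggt
Kcnc4, GRCm38.p6 chr3:107458899-107459148, minus strand: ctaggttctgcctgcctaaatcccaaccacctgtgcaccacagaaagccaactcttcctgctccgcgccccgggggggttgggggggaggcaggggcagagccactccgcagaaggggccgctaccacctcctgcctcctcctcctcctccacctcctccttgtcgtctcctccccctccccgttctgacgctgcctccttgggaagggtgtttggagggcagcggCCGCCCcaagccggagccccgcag
Kcnk13, GRCm38.p6 chr12:99964249-99964498, plus strand: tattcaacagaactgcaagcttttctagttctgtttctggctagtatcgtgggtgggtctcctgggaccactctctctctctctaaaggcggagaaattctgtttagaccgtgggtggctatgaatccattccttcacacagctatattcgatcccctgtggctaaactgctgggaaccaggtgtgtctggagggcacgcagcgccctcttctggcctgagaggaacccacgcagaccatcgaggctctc
GGGCGG or its reverse complement stood in 44.6% of member windows and in 32.7% of 32851 windows of all genes. The E-box CACGTG was in 6.52% and 6.02%, the cAMP response element TGACGTCA in 0% and 1.55%, and the glucocorticoid response element in 0% and 0.00913%, on either strand, and of these only the GC box stood in the windows printed. The printed Kcnk13 window held none of the 4. GC content of the printed windows was 83.6% for Kcnmb4, 67.6% for Kcnh7, 68% for Kcnc4 and 52.8% for Kcnk13. By the gene coordinates used here, only the Kcnh7 window lies outside its gene. Those of Kcnmb4 (gene end 116473859), Kcnc4 (gene end 107460287) and Kcnk13 (gene start 99963149) lie inside the gene, before a later start. They therefore do not show the sequence before the outermost start of these genes.

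Some members varied with the slide more than with any group. Over the 75 arrays the slide took up 86.7% of the variance of Kcnn2, 83.6% of Kcna4, 82.4% of Kcna5 and 77.9% of Kcnk2. Slide means of Kcna5 ran from 7.71 to 9.12 and those of Kcnn2 from 7.31 to 8.29. The share exceeded 70% in 6 of 66 members (9.09%) and in 10.3% of all genes. No share of all genes was measured to set beside the counts of the 10 marker lists. The microglial list had the largest count, with 27 of 66 members correlated, 9 positively and 18 negatively. Among them Kcna4, Kcna5, Kcnn2 and Kcnk2 had r = 0.90, 0.92, 0.86 and 0.79 (rho = 0.88, 0.87, 0.85 and 0.71, permutation p of 1e-05 each, adjusted p of 0.0002). Taking out slide means brought r to 0.28, 0.49, 0.20 and 0.45. Arrays of one slide were not independent for these genes, so the permutation p-values overstate the number of separate observations. Within that list Ctss, P2ry12 and Csf1r correlated with Kcna5 at 0.88, 0.90 and 0.83, while Cx3cr1, a defining microglial marker, correlated at -0.02.

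**Figure D5:**
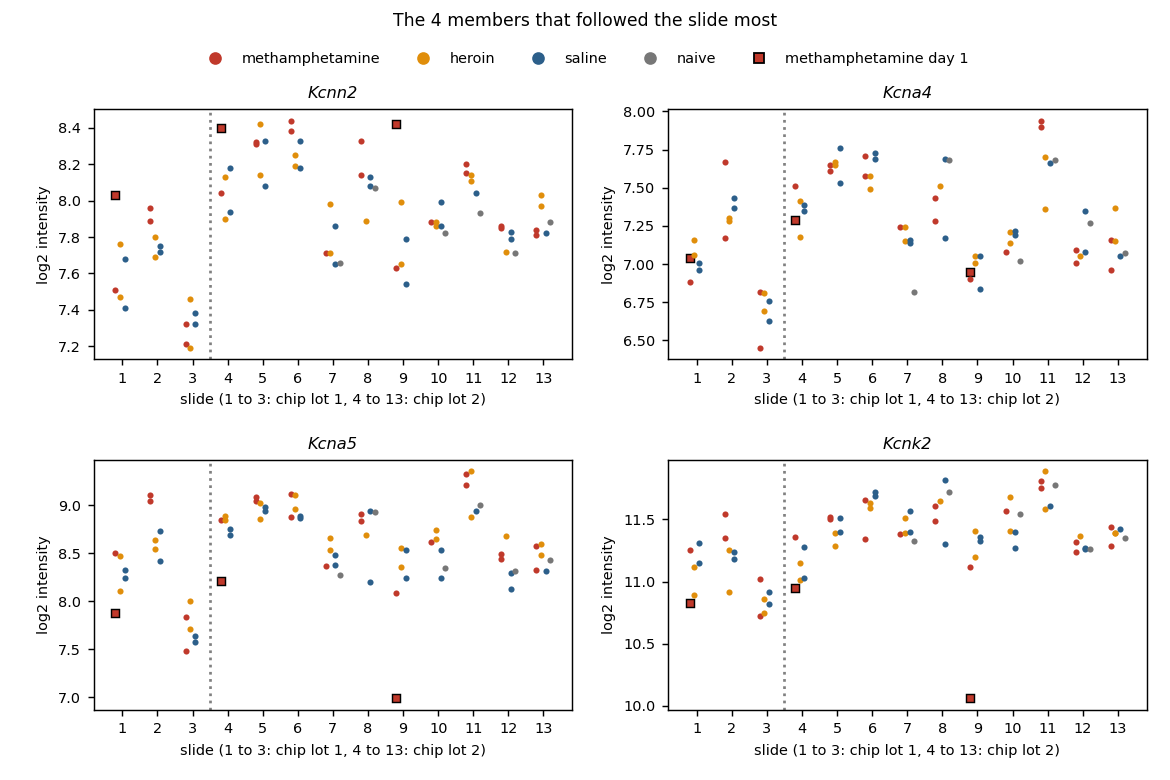
Log2 intensity of Kcnn2, Kcna4, Kcna5 and Kcnk2 on every array by slide, with methamphetamine, heroin, saline and naive arrays from left to right within a slide and squares for methamphetamine day 1. Arrays of one slide lie together and slide 3 is lowest apart from the squares, with a Kcna5 slide mean of 7.71 against 9.12 on the highest slide.

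Kcne2, an auxiliary subunit known in mouse from the choroid plexus, followed the 5 choroid plexus markers at r = 0.88 and rho = 0.65 over the 75 arrays (permutation p of 1e-05, adjusted p of 0.0002). Its r was 0.93 in lot 1, 0.86 in lot 2 and 0.86 without the 2 farthest arrays. Its single-day changes ran from -0.98 on heroin day 15 (adjusted p = 0.322) and -0.72 on heroin day 3 (adjusted p = 0.999) to 0.62 on heroin day 12 (adjusted p = 0.748), and no day passed. The choroid plexus level was -0.01, 0.04 and 0.06 on heroin day 15, against 1.11, 1.21 and 1.37 on saline day 15.

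The remaining comparisons held no member past the threshold. Saline treatment against naive gave 0 in limma (0.0404% of all genes, 3 members or 4.55% at an unadjusted p under 0.05, beside 7.3% of all genes), with Kcnd2 first at 0.16 (adjusted p = 0.55), then Kcnk4 at -0.31 (adjusted p = 0.624) and Kcna3, a Kv1 pore, at 0.14 (adjusted p = 0.676). Saline withdrawal against saline treatment gave 0 (0.00808% of all genes, 3 members or 4.55% at an unadjusted p under 0.05, beside 5% of all genes), and its first member was Kcnip3 at 0.10 (adjusted p = 0.946). Set against withdrawal, the drug effect of the treatment phase passed for 0 members with methamphetamine (0.00808% of all genes, without day 1, 3 members or 4.55% at an unadjusted p under 0.05, beside 4.88% of all genes) and for 0 with heroin (0.0566%, 8 members or 12.1%, beside 10.2%). The smallest p there were those of Kcnip3 at 0.20 for methamphetamine (adjusted p = 0.968) and Kcnj2 at -0.20 for heroin (adjusted p = 0.335). In 4 further tests of whether a drug effect differed between days, the one for methamphetamine treatment took days 3, 6 and 12 and left out day 1, whose own test against these days is given above. They called 0 members and 0.00404% of all tests in limma. At an unadjusted p under 0.05 stood 2 members for methamphetamine on days 3, 6 and 12 (3.23% of all genes), 1 for heroin treatment (4.1%), 4 for methamphetamine withdrawal (4.74%) and 9 for heroin withdrawal (7.12%), with Kcnmb4 between heroin withdrawal days at the smallest p (0.00204, adjusted p = 0.429).

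Of 43 listed genes that act with potassium channels, 35 were measured: partners that anchor or gate the channels, G protein subunits, pacemaker channels, pump subunits and chloride cotransporters. Methamphetamine treatment with day 1 called 2 of them higher and 2 lower, beside 2.49% and 2.14% of all genes. The higher ones were Abcc8, the sulfonylurea receptor of KATP channels, at 0.23 and Lgi1, a secreted partner of Kv1 complexes, at 0.14. The lower ones were Gnb4, a G protein beta subunit, at -0.22 and Ank3, the anchor of the axon initial segment, at -0.15 (limma adjusted p-values of 0.00529 to 0.0358 for the 4). Without day 1, in heroin treatment and in both drugs' withdrawal means 0 of the 35 passed. On methamphetamine day 1 alone 2 were higher, Lgi1 at 0.69 and Abcc8 at 0.58, and 5 lower, Gnb4 at -0.83, Gnb5 at -0.48, Dpp10 at -0.45, Gnb2 at -0.36 and Atp1b3 at -0.28, beside 3.36% and 3.86% of all genes. Lgi1, Gnb4 and Gnb2 also passed in day 1 minus days 3, 6 and 12, beside 3.07% of all genes. On heroin day 15 Stx1a, a Kv2 partner, was the 1 called lower, at -1.54 (adjusted p = 0.0341), beside 0.994% of all genes.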

How the data were processed

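Total RNA of mouse striatum was labelled with biotin and measured on Illumina arrays, per the labels' protocols. The deposited non-normalized table gives each probe's linear intensity on each array, per the file headers. The authors' processed table is on the log2 scale, with array medians of 6.936 to 6.948, per its values, and the software and normalization behind both tables are not given in the sources used here. No detection p-values were found in the tables used here, so intensities were quantile-normalized on the log2 scale and a probe was kept if any of the 25 groups had all its arrays above the array median. Of 45281 probes, 34885 had 1 symbol, 18 several and 10378 none, and per gene the probe with the highest mean over 78 arrays was taken. Median intensity per array ran from 95 to 184, and the number of arrays limits the precision.

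limma 3.58.1 (R 4.3.3) fitted group means and 13 slides, with 41 residual degrees of freedom on 78 arrays and 39 on the 75 without methamphetamine day 1. That second fit gave the comparisons named "without day 1". Tests were two-sided. Slides of 6 arrays follow from the array names in the labels. The leading digits of their barcodes put 3 slides (18 arrays) in what is called chip lot 1 here and 10 (60 arrays) in lot 2. The labels do not say that these digits mark a production lot. Named members were those past the threshold, up to 12 per comparison with the largest change, else the 3 with the smallest p, and members listed by role. The members and lists were chosen with earlier results of these data known. Marker levels are mean deviations of a list's genes from their medians over all arrays. On simulated arrays with 200 changed genes of 12371, the fit recovered 96% of changes of 0.3 and 99% of 0.6 for methamphetamine treatment, and 9, 76 and 98.5% of changes of 0.3, 0.6 and 1 for methamphetamine day 1. False calls were 11 and 13 for treatment, and 0, 7 and 14 for day 1. The simulation shifted every array of the drug groups equally, with independent normal noise of the same spread on all arrays. It does not cover changes held mainly by the day 1 arrays. Alternatives were the deposited values, normexp correction with an offset of 50, median centring, no filter or a 60th percentile filter, no slide term, the slide as a random block, lot 2 alone, a replicate block, fits on only the groups compared, and each array left out.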

Additional observations from a re-analysis of the deposited data

Results flagged for a closer look

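The methamphetamine effect on day 1 differed from that on days 3, 6 and 12, each against saline of the same days, by a test of the difference itself, for 5 members. The difference was 1.29 for Kcng2 (limma adjusted p = 7.41e-05), -0.89 for Kcnt1 (adjusted p = 0.000495), -0.87 for Kcna5 (adjusted p = 0.018), -0.79 for Kcne1l (adjusted p = 0.018) and -0.65 for Kcnq5 (adjusted p = 0.0346). The comparison was added after the values of methamphetamine day 1 had been seen, and with the deposited log2 values the 5 differences lay between -0.07 and 0.02. One naive array stood apart for Kcnip2, a KChIP protein: naive replicate 4 had 8.44, against 9.16 to 9.57 on the other 5 naive arrays. Of 45 members looked at in this way 1 was so marked, and chance marks about 1 in 20.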

How the results depend on the processing

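With the authors' deposited log2 values, 0 members passed for methamphetamine treatment, for methamphetamine day 1, for day 1 minus days 3, 6 and 12 and for the single days. There Kcnt1 had 0.01 over methamphetamine treatment, and on day 1 Kcna5 had 0.11, Kcnab2 -0.04, Kcnc4 -0.13, Kcnj4 0.04, Kcnk2 0.06 and Kcnq5 0.01, all turned in sign; in day 1 minus days 3, 6 and 12 Kcna5 had 0.02 and Kcng2 0.00. The deviations in that table are smaller: their median slope on the signals was 0.27 over the 75 arrays and 0.05 on methamphetamine day 1. For methamphetamine treatment the count of 6 fell to 2 without a slide term, 3 in lot 2 alone and 1 with only the groups compared. For methamphetamine day 1 the count of 12 fell to 5 in lot 2 alone, where fewer arrays enter. For the single days the count of 3 fell to 0 without a slide term, with the replicate block and without saline day 15 replicate 2. In heroin treatment 1 member, Kcnk13, passed with the stricter filter, the random slide block and the replicate block, and 1, Kcnip3, passed for methamphetamine without day 1 with the random slide block. The cause was not tested.

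Leaving out each array in turn gave 3 to 9 members for methamphetamine treatment, 2 to 15 for methamphetamine day 1, 2 to 9 for day 1 minus days 3, 6 and 12, 0 to 6 for the single days and 0 to 1 for heroin treatment, and 0 for the other comparisons refitted so. For the single days 42 of 69 omissions left the count within 1.5 times and 15 left 0. The count of 1 for heroin treatment came without heroin day 1 replicate 2, heroin day 6 replicate 1 or saline day 1 replicate 3.

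The replicate number was shared across groups. Deviations from group means correlated at -0.0105 on average within a number and 0.00537 between numbers, and 17 of 72 arrays were closest to their own number. Slide differences were not taken out of these deviations, so the values cannot decide whether the number pairs the samples. With the replicate block the count was 5 for methamphetamine treatment, 12 for methamphetamine day 1, 1 for heroin treatment and 0 for the single days. Over all settings other than each array left out, 98 of 113 counts stayed within 1.5 times. The fit with only the groups compared could not be made for methamphetamine day 1. Signal over background limits members near the array median, whose changes are understated.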
